A study of Sus scrofa with 13 samples.

Results

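The liver of the Guizhou mini-pig, which is a Chinese breed of small body size, was compared with 8 other organs taken at the same age of 240 days after birth. The other organs were heart, spleen, lung, kidney, testis, ovary, adipose tissue and the back muscle longissimus dorsi (called muscle here). The 9 libraries were all those of the 13 in the series that came from a single tissue at this age, and the labels name no treatment. Each organ was represented by 1 library of total RNA depleted of ribosomal RNA, and the number and sex of the animals behind a library are not given in the labels. No difference between organs therefore had a replicate check, and no p-value is given.

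The liver makes most of the proteins of blood plasma, converts ammonia to urea, breaks down amino acids, makes bile acids and lipoproteins, and releases glucose during fasting. Most of this work is done by hepatocytes, which make up the bulk of the organ beside Kupffer cells (the resident macrophages), sinusoidal endothelium, stellate cells and bile duct cells. In bulk tissue, fewer cells of a type and less RNA per cell cannot be told apart.

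In every library the same 21607 Ensembl genes and 10813 long noncoding RNAs (lncRNAs, named TCONS) were listed in RPKM, that is, as read numbers divided both by feature length and by sequencing depth. A feature was tested when its RPKM reached 1 in any of the 9 organs, which held for 15252 Ensembl genes and 3346 lncRNAs. Differences were taken on the log2(RPKM + 0.1) scale, as liver minus the median and liver minus the maximum of the 8 other organs, so that a difference of low genes is understated. A gene was called when the difference was at least 2-fold on this scale. The intervals in brackets are 95% exact Poisson intervals from the reads recovered for a feature, and they cover counting error only.

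The liver library held 3629806 reads on listed features, the fewest of the 9, against 4219511 in spleen to 12394421 in testis. These were 11.8% of the 30822198 reads that its RPKM values were scaled by, whereas the counted share in the other organs was 11.6% to 38.0%. Most genes had low values in liver beside this. The median difference of all tested Ensembl genes from the median of the other organs was -0.88 as deposited, -0.43 after scaling every library to the same total RPKM, and 0.00 after scaling to the same median ratio. The levels below are as deposited. Where a group changes its order, or a gene named with a higher organ becomes highest in liver, with the same median ratio, this is stated with it. An order against a single organ, or a place below every other organ, can also change under that scaling and is not always stated.

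The lung library stood apart from the other organs in its content of liver transcripts. There were 109 Ensembl genes with at least 10 RPKM in liver and at least 16-fold more there than in each of the 7 organs other than lung. In lung these genes had a median of 4.45% of their liver level (quartiles 3.23% and 5.97%), 107 of 109 were above 1%, and none was at 0. The same measure was taken on a set of genes chosen anew for each organ. Kidney had a median of 0.430% (113 genes, quartiles 0.0470% and 8.87%), and 48 of 113 were above 1%. On sets of 81 to 86 genes, the medians were 0.0358% in testis, 0.0430% in ovary, 0.0469% in adipose tissue and 0% in heart, spleen and muscle. The genes at the ends of the range in lung were CYP2E1, with 0.695% of its liver level, and GPLD1, with 143%. In the other direction, lung markers were nearly absent from liver, for example SFTPC, a surfactant protein of the alveoli, with 0.401 RPKM in liver and 831 in lung. Since lung was the next-highest organ of many liver genes, results against the maximum are also given without it. What these transcripts in lung came from was not tested.

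**Figure D1:**
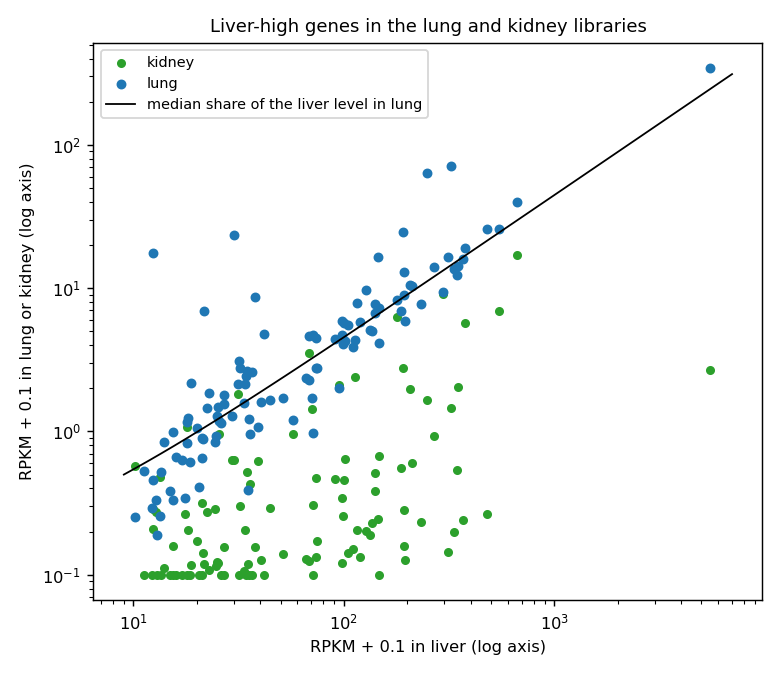
RPKM + 0.1 in lung (blue) and kidney (green) against RPKM + 0.1 in liver for the 109 Ensembl genes high in liver, both axes on a log scale; each point is 1 gene in 1 library, and the line marks the median lung share of 4.45%. Most lung points lie close to the line over the whole range of liver levels, while the kidney points are scattered and most lie lower. The genes were chosen as at least 16-fold higher in liver than in kidney, with no such limit for lung. Kidney points therefore lie low by choice.

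Of the 15252 Ensembl genes, 350 (2.29%) were at least 2-fold higher in liver than in every other organ and 1268 (8.31%) at least 2-fold lower than in every other organ. Against the median of the other organs, 1462 (9.59%) were higher and 7047 (46.2%) lower. These shares over all tested genes are the backgrounds of the gene lists below. Without lung, 375 genes (2.46%) were higher than in every other organ and 1281 (8.4%) lower, and against the median 1591 (10.4%) were higher and 6594 (43.2%) lower. The balance depended on the scaling, as 868 (5.69%) were higher and 413 (2.71%) lower than every other organ after scaling to the same median ratio. Against the median organ this scaling gave 3359 (22%) higher and 3037 (19.9%) lower. The 350 genes took 38.3% of the counted reads of liver, 1.82% of those of lung, 0.823% of those of kidney and 0.796% of those of adipose tissue, and 0.0569% to 0.45% elsewhere. The next-highest organ was lung for 162 of the 350 genes and kidney for 80. Without lung it was kidney for 144 of 375, ovary for 66 and testis for 54. In liver, 201 features held 50% of the counted reads, fewer than in spleen (892), lung (1019) or kidney (672) and more than in heart (75) or muscle (29).

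Genes of secreted plasma proteins and enzymes of hepatocytes were among those furthest above all other organs. IGFBP1, a binding protein of insulin-like growth factors, had 35.1 RPKM in liver (33.4 to 36.8), and in the other organs it ranged from 0 to 0.292 with a median of 0. The difference from the highest of them, lung, was 6.49, a 120-fold ratio of RPKM. It was listed at 0 in 6 of the 8 organs. CPN1, the catalytic subunit of carboxypeptidase N, had 17.5 RPKM in liver (16.3 to 18.6) and 0 to 0.244 elsewhere, a 71.6-fold ratio to the highest of them. FETUB, a liver-made protease inhibitor of plasma, had 20.4 RPKM (19 to 21.8) and was above 0 only in lung (0.313) and ovary (0.0711) among the others. In each case lung was the nearest organ. The genes were chosen for their distance from the highest other organ, so that liver lies apart by choice.

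Next came PROC, the anticoagulant protein C, with 94.3 RPKM in liver, 1.99 in kidney, 1.91 in lung and at most 0.0648 elsewhere. HSD17B11, a dehydrogenase of lipid droplets, differed from most of the others in that it was above 0 in every organ, from 0.0264 in muscle to 0.852 in lung, against 35.5 in liver. F10, coagulation factor X, had 70.7 RPKM in liver, and testis (1.83), lung (1.61) and kidney (1.34) followed. TAT, tyrosine aminotransferase, had 38.9 RPKM in liver, 0.969 in lung, 0.521 in kidney and 0 in the remaining 6 organs. TFR2, the iron-sensing transferrin receptor 2, had 21.1 RPKM against at most 0.557, and APOC3, an apolipoprotein that slows the clearance of triglycerides, had 297 RPKM against 9.31 in lung and 9.02 in kidney.

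Of the 15 genes with the largest differences, 5 had no symbol. ENSSSCG00000005488 had 147 RPKM in liver and ENSSSCG00000024929 had 196, with 4.04 and 5.78 in lung as their highest values elsewhere. Without lung, the differences of these 2 genes from the highest other organ were 10.10 and 9.86 in place of 5.16 and 5.06. ENSSSCG00000003087 had 15.3 RPKM in liver and 0.234 in lung. ENSSSCG00000002886 had 71.1 RPKM in liver with muscle as the next organ (1.68). ENSSSCG00000021939 had 3.47 RPKM in liver (2.71 to 4.38, from 71 reads) and 0 in all 8 other organs, which made it at least 16.7-fold higher in liver when the floor was set at 3 reads in each of the other libraries.

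**Figure D2:**
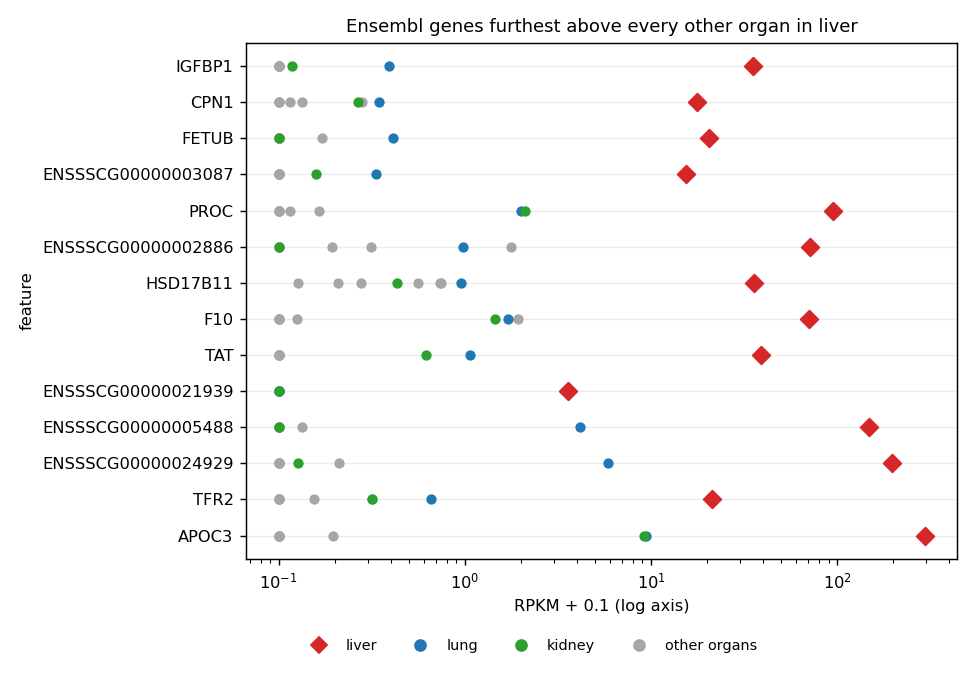
RPKM + 0.1 on a log axis for 14 of the 15 Ensembl genes with the largest difference between liver and the highest other organ; red diamonds are liver, blue points lung, green points kidney and grey points the 6 other organs, 1 library each, and points at 0.1 stand for 0 RPKM. By this choice liver lies apart from all other points in each row, from 3.47 RPKM for ENSSSCG00000021939 to 297 for APOC3.

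By level, 2 genes exceeded all others in liver. ALB, which encodes serum albumin, had 5495 RPKM (5477 to 5513), 343 in lung and 0 to 2.58 in the remaining organs. APOE, an apolipoprotein of lipoprotein remnants, had 5041 RPKM, while adipose tissue had 345, lung 128, testis 126 and muscle 0. They were followed by ENSSSCG00000006558 (844 RPKM) and by TF, the iron carrier transferrin (668). TF was also found in kidney (17.0) beside lung (39.8). ENSSSCG00000006558 was not particularly high in liver, as its level elsewhere was 833 in muscle to 7655 in ovary. The mitochondrially encoded COX1 (593 in liver, up to 6615 in heart), the ribosomal stalk protein gene RPLP2 (410, up to 740 in adipose tissue) and the ferritin light chain gene FTL (403, up to 725 in ovary) were likewise not highest in liver as deposited, and FTL was with the same median ratio. HRG, a histidine-rich plasma glycoprotein, had 376 RPKM, ENSSSCG00000023883 had 546 and ENSSSCG00000002749 had 478, each at least 18.6-fold above the next organ, which was lung. How reads shared by near-identical gene copies were assigned is not given, so that the levels of FTL, RPLP2 and other genes with many copies are uncertain.

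Plasma carrier and acute phase proteins were the group with the largest median difference. Of 21 tested members, 20 were at least 2-fold above every other organ (background 2.29%) and all 21 at least 2-fold above the median, with a median difference of 9.13 against -0.88 for all genes. TTR, the carrier of thyroid hormone and retinol-binding protein, had 350 RPKM in liver, 14.2 in lung, 1.94 in kidney and 0.174 in adipose tissue, and was at 0 in 5 organs. The acute phase protein gene CRP had 24.6 RPKM in liver, 0.828 in lung and no more than 0.0579 elsewhere. AGT, the precursor of angiotensin, was the exception, with 10.1 RPKM in liver (9.35 to 10.9) and a similar level in adipose tissue (10.2), testis (11.8) and lung (14.5), although liver was highest with the same median ratio. ITIH3 and ITIH4, of the inter-alpha-trypsin inhibitor family, had ovary as their next organ (11.8 and 9.72 RPKM against 98.0 and 73.6 in liver). The summed RPKM of the 21 genes was 8729 in liver, 511 in lung, 37.7 in kidney and 2.06 to 24.8 in the other organs.

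Of 19 genes of coagulation and fibrinolysis, 14 were at least 2-fold above every other organ, with a median difference from the median organ of 8.57. PLG, which encodes plasminogen, had 116 RPKM in liver, 7.74 in lung and at most 0.190 elsewhere. The fibrinogen chain genes FGB and FGG had 113 and 101 RPKM, and SERPIND1, the thrombin inhibitor heparin cofactor II, had 101. Lung was the next organ for each of these, with 4.18 to 7.74 RPKM. Kidney was the next organ for KNG1, the kininogen gene, with 32.0 RPKM against 55.7 in liver, which was short of 2-fold, and for CPB2 (16.5 against 62.7) and F9 (8.92 against 59.1). The 4 members that were not highest in liver were PROS1, F8, F3 and PLAT. PROS1, the cofactor protein S, had 11.9 RPKM in liver, 42.0 in ovary and 16.7 in testis, but was highest in liver with the same median ratio. As deposited, F8, coagulation factor VIII, was lower in liver (1.51, 1.21 to 1.85) than in any other organ. Elsewhere it ranged from 1.92 in muscle to 9.47 in kidney. With the same median ratio its level in liver was above those in testis and ovary. F3, tissue factor, had 0.197 RPKM in liver and 30.5 in ovary. PLAT, the tissue plasminogen activator, had 0.0982 RPKM in liver from 8 reads and 0.788 to 44.9 elsewhere, and was the only member more than 2-fold below every other organ.

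Among 18 complement genes, 11 were at least 2-fold above every other organ and 16 above the median, and the median difference was 4.48. C3, the central component, had 248 RPKM in liver, 64.0 in lung, 9.49 in ovary and 0.643 to 6.31 elsewhere. CFB, of the alternative pathway, had 145 RPKM in liver and 16.3 in lung. C4A had 121 RPKM in liver and 32.6 in ovary, 19.9 in testis and 16.5 in spleen, though near-identical C4 copies may share reads. In liver the genes of the terminal components C8A (35.4 RPKM), C8B (44.6) and C9 (51.9) were also 2-fold above every other organ. The 4 that were not highest in liver were C7 (10.1 RPKM, against 48.7 in ovary and 48 in spleen), C1QA (7.57 against 54.2 in spleen), CFP (0.704 against 9.08 in spleen) and CFD (0.544 against 8.57 in spleen). C1QA and CFP are made mainly by myeloid cells, and CFD, also called adipsin, is known from adipose tissue, where it had 6.19 RPKM.

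Of 15 tested lipoprotein genes, 9 were at least 2-fold above every other organ and 14 above the median, with a median difference of 7.06. Beside APOE and APOC3, APOA2, a protein of high density lipoprotein, had 194 RPKM in liver, 12.9 in lung, 0.0580 in kidney and 0 in the other 6 organs. APOB, the main protein of very low density lipoprotein, had 192 RPKM in liver, 8.81 in lung and at most 0.181 elsewhere. LIPC, the hepatic lipase, had 74.6 RPKM in liver and 2.67 in lung. SCARB1, the receptor of high density lipoprotein, was not highest in liver, with 2.93 RPKM against 93.9 in ovary. ANGPTL4 (16.3 in liver, 27.1 in ovary), PON1 (11.9 in liver, 28.2 in kidney), PON3 (8.09 in liver, 12.6 in adipose tissue) and APOM (2.26 in liver, 2.83 in kidney) were further members with a higher organ as deposited, and with the same median ratio liver was highest for these 4.

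All 8 genes of the urea cycle were at least 2-fold above the median of the other organs, with a median difference of 5.16, and 4 were above every other organ. OTC, ornithine transcarbamylase of mitochondria, had 68.1 RPKM in liver, 2.2 in lung and 0 to 0.0244 elsewhere. CPS1, which makes the first intermediate of the cycle, had 51.2 RPKM against at most 1.61. ARG1, which releases urea, had 31.7 RPKM in liver, 2.99 in lung and 0 in kidney, and NAGS, which makes the activator of CPS1, had 3.37 against at most 0.160. The steps in the cytosol between them were shared with kidney. ASS1, argininosuccinate synthase, had 67.1 RPKM in liver (64.8 to 69.4) and 135 in kidney, an order that turned with the same median ratio. ASL, argininosuccinate lyase, had 33.5 in liver and 22.2 in kidney. The carriers SLC25A15 (7.29 in liver, 11.4 in kidney) and SLC25A13 (3.98 in liver, 6.50 in kidney) were higher in kidney as deposited, but highest in liver with the same median ratio.

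For amino acid breakdown and one-carbon metabolism, 12 of 25 genes were at least 2-fold above every other organ and 24 above the median, with a median difference of 5.73. HPD, of tyrosine breakdown, had 216 RPKM in liver, 25.1 in kidney, 13.6 in testis and 9.80 in lung. MAT1A, the hepatic methionine adenosyltransferase, had 104 RPKM in liver and 5.41 in lung, and TDO2, which opens the ring of tryptophan, had 98.5 and 3.98. In the other organs TDO2 was at most 0.605 and MAT1A at most 0.311. Kidney had the higher level in 8 of the 10 members that were not highest in liver. These were AGXT (18.7 RPKM in liver and 27.9 in kidney), UPB1 (18.3 and 21.1), CTH (11.5 and 15.2), KMO (10.2 and 20.4), AASS (7.13 and 7.89), PRODH2 (4.26 and 16.8), KYNU (1.65 and 2.67) and ACMSD (0.245 and 8.68). ACMSD, which limits the flow of tryptophan into NAD, was the one with the largest gap, and it was at 0 in the other 7 organs. The remaining 2 were BHMT, with 3.55 RPKM in liver, 4.69 in kidney and 6.01 in testis, and GOT1, with 6.04 in liver and 21.0 in heart. With the same median ratio, 17 of the 25 genes were 2-fold above every other organ (background 5.69%). Of the 10 members not highest as deposited, 7 were then highest in liver, and PRODH2, ACMSD and GOT1 were not. GOT1 was the only member not at least 2-fold above the median organ, with a difference of -0.19.

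Each of the 10 tested genes of bile acid synthesis and transport had its highest level in liver, 6 of them by at least 2-fold over every other organ, and the median difference from the median organ was 4.93. ABCB11, the bile salt export pump, had 26.9 RPKM in liver and 1.46 in lung. CYP7A1, the rate-limiting enzyme of bile acid synthesis, had 21.6 RPKM in liver (20.7 to 22.6), 6.78 in lung, 0.871 in adipose tissue and 0 to 0.0185 elsewhere. Its lung level was 31.3% of that of liver, far above the median share, and without lung its difference from the highest other organ was 4.49 in place of 1.66. AKR1D1, a reductase of bile acid intermediates, had 20 RPKM against at most 0.962. NR1H4, the bile acid receptor FXR, had 13.1 RPKM in liver, 4.58 in ovary and 3.59 in kidney. For ABCC2, an export pump, the level in liver (12.2, 11.7 to 12.8) was close to that in kidney (11.5, 11.1 to 12.1). For SLCO2B1, an uptake carrier, the level in liver (4.13) was close to that in spleen (4.12), and the intervals overlapped in both cases.

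As deposited, 4 of 12 tested genes of drug and steroid metabolism were at least 2-fold above every other organ (background 2.29%). At least 2-fold above the median were 9, with a median difference of 2.99. With the same median ratio 7 were 2-fold above every other organ (background 5.69%). Only 12 of the 31 genes listed for this group matched an identifier by symbol. FMO1, a flavin monooxygenase, had 214 RPKM in liver (211 to 218) and 254 in ovary. ALDH1A1, of retinal oxidation, had 91.3 RPKM in liver and 28.9 in kidney, and EPHX1, an epoxide hydrolase, had 58.6 in liver and 91.8 in ovary. The 4 genes above every other organ as deposited were ALDH1A1, ADH4, CYP2E1 and CYP1A2. CYP2E1, which oxidises ethanol, had 12.8 RPKM in liver, 0.668 in testis, 0.0890 in lung and 0 in kidney. CYP1A2 had 1.65 RPKM in liver and was at 0 in 7 organs. With the same median ratio liver was highest for 4 of the 8 members with a higher organ as deposited, FMO1 and EPHX1 among them. Reads of genes in large families such as these may be split between copies.

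In gluconeogenesis, glycogen and fructose metabolism, 5 of 15 genes were at least 2-fold above every other organ (background 2.29%). Against the median organ, 10 were above and 4 below (backgrounds 9.59% and 46.2%), with a median difference of 3.51. The members above every other organ included SLC2A2, GYS2, KHK and GCKR. SLC2A2, the glucose transporter GLUT2, had 48.3 RPKM in liver, 9.36 in kidney, 1.28 in lung and at most 0.102 elsewhere. GYS2, the liver isoform of glycogen synthase, had 34.0 RPKM in liver and 3.69 in adipose tissue, whereas GYS1, its isoform of other tissues, had 0.550 in liver and 7.01 in muscle. The hexokinases HK1 (0.985 RPKM in liver, up to 48.5 in testis) and HK2 (0.0208 in liver, up to 6.54 in adipose tissue) were also low in liver. The muscle glycogen phosphorylase gene PYGM had 0.150 RPKM in liver and 689 in muscle, while its liver isoform PYGL had 27.0 in liver and 43.7 in testis and was highest in liver with the same median ratio. PCK1, which commits oxaloacetate to glucose, had 43.1 RPKM in liver and 116 in kidney, and 0 to 1.76 in the other organs.

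Genes of cholesterol synthesis were above the median organ as a whole, and how liver stood against ovary and testis depended on the scaling. All 17 genes were at least 2-fold above the median of the other organs (background 9.59%), with a median difference of 2.31. None was 2-fold above the maximum as deposited, against 7 with the same median ratio (backgrounds 2.29% and 5.69%). The highest of the other organs was ovary for 13 of the 17, testis for 3 and lung for 1. FDFT1, squalene synthase, had 50.5 RPKM in liver and 120 in ovary, and FDPS 49.0 and 200, and for both the order turned with the same median ratio. The summed RPKM of the list was 309 in liver, 981 in ovary, 495 in testis, 121 in lung and 25.8 to 59.4 in the other 5 organs. With the same median ratio the sums were 673 in liver, 361 in ovary and 274 in testis. Both gonads make steroid hormones from cholesterol.

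Fatty acid and triglyceride synthesis was led by adipose tissue. The summed RPKM of the 14 genes was 1163 there, 140 in liver, 292 in ovary and 11.2 to 144 elsewhere, and with the same median ratio 1470.1 in adipose tissue, 305 in liver and 107 in ovary. Of these genes 7 were at least 2-fold above the median organ in liver and 4 were below it (backgrounds 9.59% and 46.2%). Above every other organ was 1 gene (background 2.29%), and the median difference was 0.67. FASN, fatty acid synthase, had 45.8 RPKM in liver and 131 in adipose tissue, SCD, the stearoyl-CoA desaturase, 31.1 and 717, and ACACA, which makes malonyl-CoA, 12.1 and 41.8. The member above every other organ was MLXIPL, the carbohydrate-responsive transcription factor ChREBP, with 9.23 RPKM in liver, 3.41 in kidney and 2.58 in adipose tissue. Of the enzymes that supply NADPH and citrate-derived acetyl-CoA, ME1 had 0.0591 RPKM in liver against 34.3 in adipose tissue, and ACLY 4.52 against 148 in adipose tissue.

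In fatty acid oxidation, none of 18 genes was 2-fold above every other organ, while 7 were above and 5 below the median (backgrounds 9.59% and 46.2%), with a median difference of 0.18. With the same median ratio 4 were above every other organ (background 5.69%), and 11 were above and 2 below the median (backgrounds 22% and 19.9%). The median difference was then 1.67. The genes ACAA1 and HSD17B4, with high levels in liver, act in peroxisomes. ACAA1 had 66.0 RPKM in liver, 47.4 in adipose tissue and 39.6 in kidney, and HSD17B4 45.9 in liver and 93.1 in testis (turned under both other scalings). By contrast, CPT1B, the carnitine palmitoyltransferase of muscle, had 0.0429 RPKM in liver from 2 reads and 34.6 in heart, and was the only member 2-fold below every other organ. CPT1A, its liver isoform, had 2.33 RPKM in liver and 11.1 in ovary, an order that turned with the same median ratio. In ketone body metabolism, ACAT1 had 19.3 RPKM in liver and 45.9 in ovary, and BDH1 had 1.49 in liver and 1.09 in heart. With the same median ratio ACAT1 was higher in liver than in ovary, but liver was not its highest organ. OXCT1, the transferase with which other tissues activate ketone bodies, had 0.276 RPKM in liver (0.193 to 0.382) and 7.95 in lung to 56.6 in heart with a median of 21.1. Its difference from lung, the lowest of them, was -4.42, and no other organ came near the liver value. The median difference of these 5 genes was -0.23 as deposited and turned to 0.44 and 1.22 under the other 2 scalings.

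Of 15 transcription factors known from liver, 6 were at least 2-fold above every other organ, 14 above the median, and the median difference was 3.81. HNF4A, a nuclear receptor at the centre of the hepatocyte network, had 14.6 RPKM in liver (13.9 to 15.2) and 19.2 in kidney, with at most 0.783 elsewhere, and was highest in liver with the same median ratio. CREB3L3, of the endoplasmic reticulum, had 12.3 RPKM in liver, 0.362 in lung and at most 0.110 elsewhere, and ONECUT1 had 8.47 against at most 0.467. NR5A2, a regulator of bile acid and steroid genes, had 1.49 RPKM in liver and 38.0 in ovary, GATA4 1.74 and 5.13 in ovary, TBX3 3.23 and 13.2 in lung, and XBP1 4.70 and 22.3 in ovary. With the same median ratio GATA4 and XBP1 were higher in liver than in ovary, but liver was not their highest organ. XBP1, a factor of the unfolded protein response, was the only one of the 15 not 2-fold above the median organ. Its difference was -0.88 as deposited, equal to that of all genes.

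Among 11 endocrine and iron genes, 5 were at least 2-fold above every other organ and 8 above the median, with a median difference of 1.73. Beside IGFBP1 and TFR2 they were LECT2, a secreted hepatokine (24.4 RPKM in liver, at most 0.740 elsewhere), TMPRSS6, which restrains hepcidin (6.84, at most 0.267), and IGFALS, the acid-labile subunit that carries IGF1 in plasma (4.23, at most 0.108). IGF1 itself had 10 RPKM in liver and was higher in adipose tissue (22.7), testis (14.4) and ovary (11). In purine metabolism, UOX, the urate oxidase that pigs have kept, had 15.7 RPKM in liver, 1.43 in testis and 1.24 in lung. XDH, which makes uric acid, had 10.3 RPKM in liver and 4.20 in heart, and both were 2-fold above every other organ. ADK, which phosphorylates adenosine, had 4.76 RPKM in liver and 5.23 in ovary, which also turned with the same median ratio. Of the fetal liver genes, AFP had 0.0816 RPKM from 5 reads and IGF2BP1 was at 0, while GPC3 had 3.88 in liver, 8.79 in adipose tissue and 5.79 in lung.

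**Figure D3:**
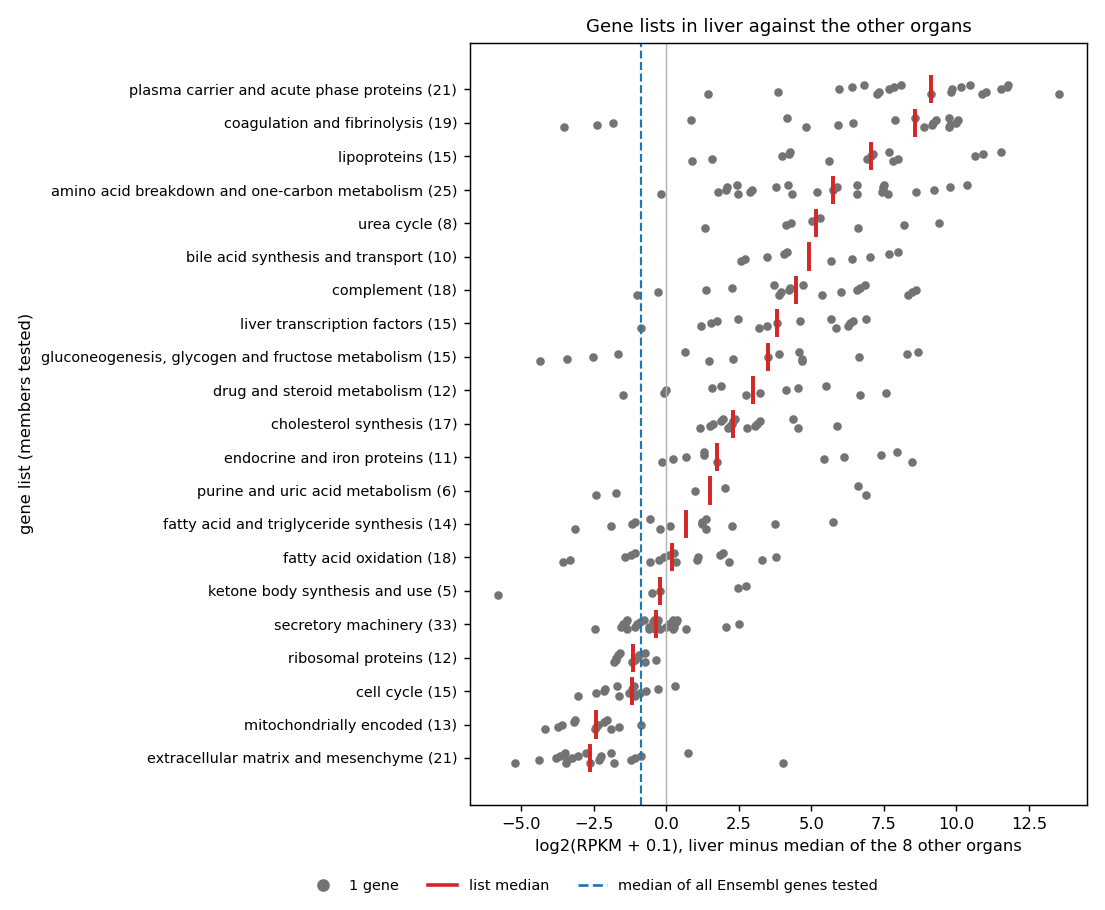
Difference on the log2(RPKM + 0.1) scale between liver and the median of the 8 other organs for the tested members of 21 gene lists; grey points are genes, red bars list medians, and the dashed line marks the median of all 15252 Ensembl genes at -0.88. Plasma proteins, coagulation factors and lipoproteins have medians of 9.13, 8.57 and 7.06, and extracellular matrix genes lie lowest at -2.64.

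The lists at the low end held structural and housekeeping genes. For the extracellular matrix and mesenchyme, 18 of 21 genes were at least 2-fold below the median organ (background 46.2%) and 7 below every other organ (background 8.31%), with a median difference of -2.64, or -1.90 with the same median ratio. DCN, the collagen-binding proteoglycan decorin, had 0.609 RPKM in liver (0.405 to 0.881), 1.95 in spleen and 201 in adipose tissue, with a median of 26.0. LAMC1, a laminin chain of basement membranes, had 0.725 RPKM against 4.49 to 50.6, and FBN1, fibrillin, 0.685 against 2.69 to 36.4. The others below every organ were ACTA2 (2.64 RPKM, at least 6.58 elsewhere), CNN1 (0.251, at least 1.40), SPARC (1.60, at least 5.2) and VIM (5.17, at least 12.6). FN1, fibronectin, which hepatocytes secrete into plasma, was the only member highest in liver, with 165 RPKM (163 to 166), 84.9 in lung and 0.512 to 34.7 elsewhere.

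Of the 13 mitochondrially encoded genes, 12 were at least 2-fold below the median organ as deposited (background 46.2%) and 7 with the same median ratio (background 19.9%). The median difference of the 13 was -2.44, or -1.02 with the same median ratio. Their summed RPKM was 1835 in liver, 1585 in spleen and 2211 in lung, against 7490 in adipose tissue to 23962 in heart in the other 6 organs. They took 1.64% of counted reads in liver, 1.37% in lung, 1.42% in spleen, 2.65% in testis and 5.2% in ovary to 12.99% in heart in the other 5 organs. COX3 had 216 RPKM in liver (197 to 2047 elsewhere) and COX2 189 (126 to 4706). As deposited, ATP8, with 29.3, was below every other organ (70.6 to 1132), but with the same median ratio it was above ovary. With the same median ratio the sums were 1595 in lung, 1763 in spleen, 3995 in liver and 4559 in testis, so that liver then lay next to testis rather than with spleen and lung.

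The 12 ribosomal protein genes had a median difference of -1.13 from the median organ, against -0.88 for all genes. At least 2-fold below it were 8 of the 12 (background 46.2%). With the same median ratio the median difference was -0.20 and none was at least 2-fold below (background 19.9%). RPL5 (33.6 RPKM in liver, 67.5 to 557 elsewhere), RPS9 (21.8, 46.8 to 347) and RPL4 (17.7, 39.7 to 426) were more than 2-fold below every organ as deposited. Of 15 cell cycle genes, 11 were at least 2-fold below the median organ (background 46.2%) and none above it, with a median difference of -1.20. The count below was 7 with the same total (background 4923 of 15252 genes). With the same median ratio 5 were below and 1 above (backgrounds 19.9% and 22%), and the median was -0.34. As deposited, testis was the highest organ for 12 and ovary for 3. CCNB2 had the highest level in liver with 1.12 RPKM, against 51.5 in testis, and was within 2-fold of the median. CENPF had 0.432 RPKM in liver, 28.6 in testis and 15.6 in ovary, and CCNB1 0.455 in liver and 11.4 in testis.

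The 33 genes of the secretory machinery, which moves and folds proteins in the endoplasmic reticulum, changed their position with the scaling. As deposited none was 2-fold above every other organ, and 2 were above and 8 below the median (backgrounds 9.59% and 46.2%). With the same median ratio 13 were above and 1 below the median (backgrounds 22% and 19.9%). The median difference was -0.35 as deposited, 0.14 with the same total and 0.83 with the same median ratio, so that its sign depended on the scaling. HSP90B1, an endoplasmic chaperone, had 69.3 RPKM in liver and 391 in ovary, CALR, calreticulin, 63.8 and 250, and CANX, calnexin, 52.4 and 101, and all 3 were highest in liver with the same median ratio. Ovary was the highest organ apart from liver for 25 of the 33 genes and testis for 8. The 2 genes above the median were SEC61A1, of the translocation channel (16 RPKM in liver, 8.44 in ovary and at most 3.70 elsewhere), and PDIA4, a disulfide isomerase (44.0 in liver, 59.7 in ovary, 27.9 in spleen, highest in liver with the same median ratio). As deposited, SRP14, of the signal recognition particle, was 2-fold below every other organ, with 12 RPKM against 24.2 to 106. With the same median ratio its level in liver was above that in lung.

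Of the 10 Ensembl genes furthest below all other organs, 4 had symbols. OXCT1 and the ketone body pathway are described above. HDAC9, a class IIa histone deacetylase known from muscle and heart, had no read in liver and 1.53 to 7.26 RPKM elsewhere, with a median of 2.78, which made it at least 33.9-fold lower in liver than in the lowest other organ with the floor at 3 reads in liver. RILPL1, of lysosome and cilium traffic, had 0.268 RPKM in liver (0.128 to 0.492) and 5.44 to 38.4 elsewhere. MGLL, the monoglyceride lipase that completes the breakdown of triglycerides, had 0.122 RPKM in liver (0.0652 to 0.209) and 2.74 in testis to 47.1 in heart, with 41.4 in adipose tissue. The genes were chosen as lowest against every other organ, so that liver lies below the other organs by choice.

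The 6 genes without a symbol were ENSSSCG00000027181, ENSSSCG00000021524, ENSSSCG00000011669, ENSSSCG00000025668, ENSSSCG00000004206 and ENSSSCG00000027204. They had 0 to 9 reads in liver. ENSSSCG00000027181 had none against 2.80 to 25.7 RPKM elsewhere, and it was at least 3.71-fold lower in liver with the floor at 3 reads. ENSSSCG00000021524 had a single read, or 0.0569 RPKM in liver (0.00144 to 0.317), against 3.42 to 42.4 elsewhere. For the other 4 the level in liver was 0.139 to 0.268 RPKM and the lowest level elsewhere 2.86 to 4.81.

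**Figure D4:**
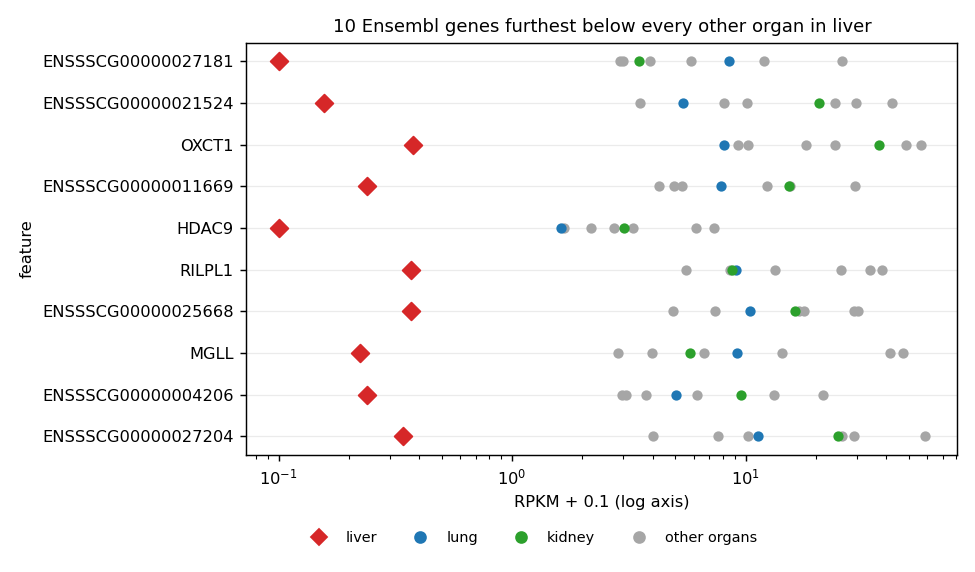
RPKM + 0.1 on a log axis for the 10 Ensembl genes furthest below the lowest other organ; red diamonds are liver, blue points lung, green points kidney and grey points the 6 other organs, 1 library each. Liver is at or below 0.276 RPKM in every row and no other organ is below 1.53.

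The label of the library was checked against markers of cell types. Of 10 hepatocyte markers, 9 were at least 2-fold above every other organ, HNF4A being the exception, and their summed RPKM was 6332 in liver, 384 in lung, 26.7 in kidney and 0.0298 to 4.02 in the other 6 organs. None of the 10 was at 0 in lung, and they took 10.5% of counted reads in liver and 0.452% in lung. Markers of Kupffer cells and macrophages had a sum of 33.1 RPKM in liver, 103 in spleen, 83.3 in lung and 26.6 in ovary, and with the same median ratio 72.1 in liver and 60.1 in lung. CLEC4F, a lectin known from Kupffer cells, had 13.3 RPKM in liver (12.3 to 14.3) and 12.4 in spleen, and was at most 0.640 elsewhere, whereas MARCO, a scavenger receptor, had 9.88 in liver and 45.7 in lung. Of the 4 sinusoidal endothelium markers, OIT3 alone was 2-fold above every other organ (2.44 RPKM in liver, at most 0.328 elsewhere), and STAB1 had 3 in liver and 8.16 in ovary, an order that turned with the same median ratio. Among stellate cell and fibroblast markers, COL3A1 had 4.4 RPKM in liver and RELN, known from stellate cells, 2.71, while ovary had 733 and 5.32. RELN was highest in liver with the same median ratio. Among those of bile duct cells, CLDN4 had 3.20, ANXA4 0.663 and SPP1 0.295 RPKM in liver.

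Markers of testis, spleen, ovary, kidney, lung and heart muscle each summed to at most 1.62 RPKM in liver. The 12 matched testis markers summed to 0.0241 RPKM in liver and 11 were at 0. Also at 0 were 4 of 5 spleen markers, 5 of 6 ovary markers, 4 of 9 kidney markers and 3 of 8 lung markers. Of all 21607 Ensembl genes, 14404 were above 0 in liver, so that the kidney and lung counts at 0 say little. The sums in liver were 0.0820 RPKM for spleen, 0.457 for ovary, 0.224 for kidney, 1.62 for lung and 0.467 for heart muscle. The lung sum rested on SFTPD, a lectin of surfactant, with 0.988 RPKM in liver (0.709 to 1.34) and 56.2 in lung. Of lymphocyte markers, CD4 led with 0.587 RPKM, and CCR7 was at 0. The plasma cell marker SDC1 had 5.10 RPKM in liver, but hepatocytes also make this syndecan and kidney and ovary had 5.39 and 5.45 (lower than liver with the same median ratio), while MZB1 had 0.305. HBB, of red blood cells, had 10.4 RPKM in liver and 52.7 in spleen. The adipocyte list had a sum of 43.5 in liver, of which 43.1 came from PCK1, PLIN1 had 0.0411 and LIPE was at 0. The 4 matched exocrine pancreas genes summed to 0.378 RPKM and the skeletal muscle gene ACTA1 had 1.46, against 2998 in muscle.

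Over the 15252 Ensembl genes, the order of expression in liver was most like that in kidney (Spearman's rho = 0.689), followed by lung (0.656), adipose tissue (0.634), spleen (0.612), heart (0.604), ovary (0.583), muscle (0.553) and testis (0.341). Over the 3346 lncRNAs, lung (0.538), kidney (0.528) and spleen (0.524) led and testis was last (-0.119). These are correlations across features of 1 library with another. Features are not independent replicates, and the libraries differ in depth and in the lung content of liver transcripts given above. A lncRNA was tested when it reached 1 RPKM in any organ, and 6472 listed lncRNAs were above 0 in testis against 2440 in liver. What this filter adds to the low testis value was not tested.

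The lncRNAs took 1.36% of the counted reads of liver, or 49444 reads, the lowest share of the 9 organs (1.49% in ovary to 3.68% in kidney in the others). This order rested on TCONS_00512109, which held 10.1% of the lncRNA reads in liver, 66.9% in heart and 66.3% in muscle. Without it the share was 1.23% in liver, 0.833% in muscle, 0.973% in heart, 1.02% in ovary and 1.47% to 2.37% in the other 5. Of the 3346 tested, 65 (1.94%) were at least 2-fold above every other organ and 52 (1.55%) below every other organ. Against the median organ, 328 (9.8%) were higher and 568 (17%) lower. The median difference was 0 under every scaling. That is the value of a lncRNA at 0 both in liver and in the median organ, so it shows no balance. Of the 10813 listed lncRNAs, 2440 were above 0 in liver. Without lung, 72 (2.15%) were above and 55 (1.64%) below every other organ, and with the same median ratio 125 (3.74%) and 27 (0.807%). Lung was the next-highest organ for 20 of the 65, kidney for 13 and testis for 12, and 7 had no read in any other organ.

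The lncRNA furthest above the other organs was TCONS_00816968, with 25.8 RPKM in liver (23.9 to 27.7, from 748 reads), 0.345 in lung, 0.0876 in kidney, 0.0292 in spleen and 0 in the other 5 organs. The difference from lung was 5.86, a 74.8-fold ratio of RPKM. TCONS_00237426 had 15.7 RPKM in liver (14.5 to 17.0) and its next organs were spleen (0.380) and heart (0.340), with 0.0661 in lung. TCONS_00467985 had 24.8 RPKM in liver (23.5 to 26.2) and was above 0 in all other organs except muscle, with 1.01 in lung and 0.918 in kidney. TCONS_00016645 had 4.80 RPKM in liver from 157 reads, against 5 reads in the 8 other organs together, none of them in lung. These 4 were chosen for their distance from the highest other organ, and in 2 of them lung was not the next organ.

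A further 4 of the 10 with the largest differences had no read in any other organ. These were TCONS_00045491 (5.64 RPKM in liver, 3.97 to 7.77, from 37 reads), TCONS_00241887 (5.30, from 41 reads), TCONS_00478354 (1.98, from 20 reads) and TCONS_00536251 (1.77, from 14 reads). With the floor at 3 reads in each of the other libraries, they were at least 8.68-, 9.62-, 4.69- and 3.28-fold higher in liver. Since each was above 0 in only 1 or 2 of the 13 libraries, the number of reads recovered for it is a lower bound.

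By level, TCONS_00512109 came first in liver with 278 RPKM (271 to 286), but it was lower there than in any other organ, where it ranged from 1173 in spleen to 6380 in heart. TCONS_00821510 had 61.5 RPKM in liver (57.2 to 66.0), 3.08 in kidney, 1.29 in testis and 1.14 in lung, and 0 in the other 5 organs. TCONS_00255785 had a like pattern, with 60.7 RPKM in liver (55.7 to 66.2), 3.93 in lung, 3.02 in kidney, 0.919 in testis and 0 in the others, and so did TCONS_00255792, with 8.17 in liver, 0.293 in kidney and 0.192 in lung. TCONS_00118666 had 40.2 RPKM in liver and was above 0 in all other organs except muscle, with at most 4.09. TCONS_00576222 had 36.2 RPKM in liver (33.9 to 38.6) and was found in every organ, with 25.7 in lung and 1.89 in muscle, so that it was within 2-fold of the next organ.

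At the low end, TCONS_00570438 had no read in liver and 0.850 to 9.09 RPKM elsewhere, and it was at least 3.06-fold lower in liver with the floor at 3 reads. TCONS_00542408 had 1 read in liver and 0.600 to 3.69 RPKM elsewhere. TCONS_00853343 (0.843 in liver, at least 5.04 elsewhere), TCONS_00754932 (0.160, at least 1.26) and TCONS_00343514 (0.0538, at least 0.7) rested on 6, 6 and 18 reads in liver. All 5 were chosen as lowest against every other organ, so that the liver value lay below the range of the other 8 organs by choice.

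**Figure D5:**
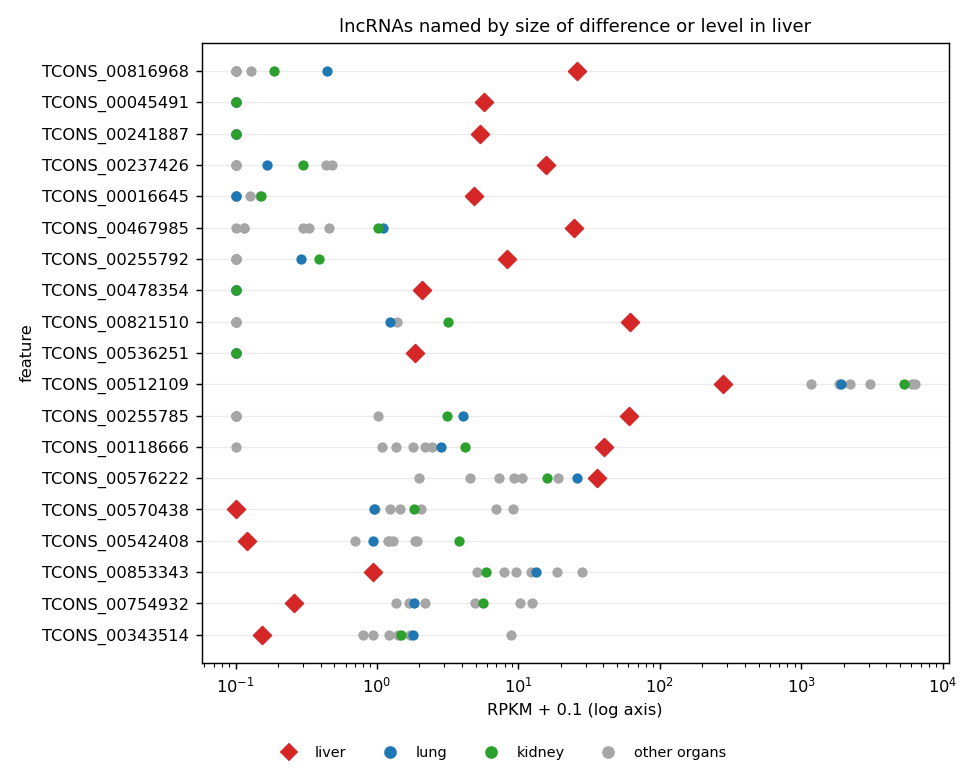
RPKM + 0.1 on a log axis for the 10 lncRNAs furthest above all other organs, the further 4 of the 5 with the highest level in liver, and the 5 furthest below all other organs; red diamonds are liver, blue points lung, green points kidney and grey points the 6 other organs, 1 library each, with points at 0.1 standing for 0 RPKM. By choice of the features, liver lies to the right of all other organs in the first 10 rows (1.77 to 61.5 RPKM) and to the left in the last 5. For TCONS_00512109 liver also lies to the left.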

How the data were processed

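The data were total RNA-seq of pig tissues. Per the labels, RNA was extracted with TRIzol, treated with DNase I and depleted of ribosomal RNA, and paired-end libraries that keep strand were prepared by SMART or dUTP. Which of them was used is not stated per library. The authors aligned the reads with TopHat (1.3.2 in the submitters' processing notes), assembled transcripts with Cufflinks, filtered them to lncRNAs, counted reads with htseq-count and deposited RPKM, 1 value per feature and library. The genome build and strand setting of the counting are not given in the sources used here.

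From the deposited RPKM, the read total of each library and the length and whole reads of each feature were recovered, for 29462 of 29462 features above 0. With altered totals this held for 0 of 2000 features. The recovery was checked on simulated data (9 of 9 totals). Lengths are the smallest possible, so reads of features above 0 in few libraries are lower bounds. Organs were taken from the labels, 1 library each, so no test between organs was possible.

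Symbols came from a table of gene names that matched 11654 of 21607 Ensembl identifiers. Members and lists were chosen with earlier results of these data known. Genes were named by rule: the 15 largest and 10 lowest differences, the 10 highest levels, in each list the 3 highest in liver, those 2-fold below every other organ and, where most were highest in liver, the exceptions, marker genes listed at 0, and for lncRNAs the 10 largest differences, the 5 lowest and the 5 highest. Some genes that this rule names are not reported here. Further list members given as examples were chosen after their values were seen. Alternatives were other pseudocounts, filters, fold limits, scalings and sets of organs. Computation used Python 3.11.15, numpy 2.4.6, scipy 1.17.1 and pandas 2.3.3.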

Additional observations from a re-analysis of the deposited data

Results flagged for a closer look

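The 4 libraries that entered no comparison (muscle at day 0 and day 30 and the mixtures of RNA) were searched for the 15 Ensembl genes furthest above the other organs in liver, and every one of these libraries held some signal. In the mixture of tissues, 15 of 15 genes were over 3 reads, with a median of 15.8 RPKM and 348 RPKM for ENSSSCG00000005488. In the mixture of muscle RNA, 3 of 15 were over 3 reads. In muscle at day 0 it was 1 of 15, HSD17B11 with 0.181 RPKM, and in muscle at day 30 it was 1 of 15, ENSSSCG00000024929 with 0.122 RPKM. The tissues in the mixture are not named in the labels.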

How the results depend on the processing

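No paired analysis was possible because each organ had 1 library, so that there were no replicates to pair. Directions and limits below concern counts of features at least 2-fold above every other organ (higher), below every other organ (lower), above the median organ and below it. The Ensembl counts were 350, 1268, 1462 and 7047, and the lncRNA counts 65, 52, 328 and 568. The cause of the shifts was not tested.

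For Ensembl genes, a pseudocount of 1 gave 297 lower and 3010 below the median, and a 4-fold limit gave 198 lower, 848 above and 2608 below the median. The same total gave 544 higher, 537 lower and 2194 above the median. The same median ratio gave 868 higher, 413 lower, 3359 above and 3037 below the median, and without lung 934, 442, 3510 and 2976. Without lung and kidney 556 were higher. For lncRNAs, a pseudocount of 0.01 gave 105 lower and 937 below the median, and a pseudocount of 1 gave 5 lower, 128 above and 86 below the median. Both an RPKM filter of 0.1 and no filter gave 162 higher and 715 above the median. A 4-fold limit gave 40, 15, 176 and 203, and the same total gave 31 lower. The same median ratio gave 125, 27, 553 and 369, and without lung 134, 31, 580 and 355. Without testis 98 were higher, without testis and ovary 119 were higher, and without muscle 88 were lower.

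Some named genes with a negative difference from the maximum turned positive. With the same median ratio it became 0.070 for HSP90B1, 0.36 for ASS1, 0.54 for FDPS, 0.18 for STAB1, 0.25 for CALR, 0.12 for PON1, 0.74 for PROS1, 1.31 for FDFT1 and 0.95 for HSD17B4, and the difference of ANXA4 from the median became 0.033. With the same total it became 0.45 for FDFT1 and 0.51 for HSD17B4. Without lung it was 0.40 for SFTPB, 0.24 for TBX3, 2.75 for SFTPD and 1.33 for MARCO. Without kidney it was 3.51 for PRODH2, 0.053 for SLC12A1, 2.90 for ASS1, 4.54 for PCK1, 0.40 for UMOD, 3.31 for PON1, 1.79 for ACMSD and 0.17 for SLC22A8. In liver, SLC12A1 had 8 reads, UMOD, ACMSD and SFTPB 6 each and SLC22A8 2, so the values of these genes rest on few reads. Without adipose tissue the difference was 0.29 for ACACA and 1.77 for FASN. Without testis and ovary it was 1.55 for FDPS, 0.34 for SCARB1, 2.14 for NR5A2, 0.25 for PROS1, 1.36 for FDFT1 and 1.16 for HSD17B4. By total reads, 3 reads on a feature of 1 kb were 0.0973 RPKM in liver and 0.138 in ovary, the highest of the 9 organs, and promoter motifs were not analysed here.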

Other observations

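A few genes of metabolism and lipid transport had few or no reads in the liver library, and they were singled out after their values were seen. APOA1, the main protein of high density lipoprotein, had 0.364 RPKM in liver (0.194 to 0.622, from 13 reads) and 0.358 in ovary, and reached 1 RPKM in no organ. CYP2A19 was listed at 0 in liver and had 4.56 RPKM in kidney and 1.11 in adipose tissue. ACADVL, of long-chain fatty acid oxidation, was listed at 0 in liver and at most 0.324 RPKM elsewhere. GSTM3 had 1 read in liver and 310 RPKM in testis. How reads of these genes were assigned is not given, so the values show only what was counted on these identifiers.

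Among the genes high in liver, some were singled out in the same way for a share of the liver level in lung well above the median of 4.45%. Beside GPLD1 (143%) and CYP7A1 (31.3%), ENSSSCG00000010008 had 77.9%, ENSSSCG00000025786 had 22.8% and ENSSSCG00000030385 had 21.8%. C3 had 25.8% of its liver level there, HSD11B1, which regenerates cortisol, had 12.9% (24.6 RPKM against 190) and CFB had 11.2%.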
